A study of Mus musculus with 6 samples.

Results

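The genes described here are an imprinted growth network chosen by name: Meg3, H19, Igf2, Dlk1, Rian, Mirg, Peg3, Cdkn1c, Grb10 and Igf2r. They were chosen with earlier results of these data known. Their shares of calls beside those of all genes are thus descriptions and not independent evidence. Of these 10 genes, 9 had a row among the 22100 genes of the single-cell count matrix, and the expression of Rian was not analysed here. Imprinted genes are expressed mainly from the chromosome of 1 parent, and many act on growth before and shortly after birth. Igf2 is a growth factor made from the paternal chromosome. Igf2r is the receptor that takes IGF2 and mannose 6-phosphate-tagged enzymes to the lysosome, and Grb10 is an adaptor that damps insulin and IGF1 receptor signalling. Cdkn1c encodes p57, an inhibitor of cyclin-dependent kinases. H19 is a noncoding RNA next to Igf2, while Dlk1, Meg3, Rian and Mirg lie together in 1 imprinted cluster.

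Lungs of 36 C57BL/6 mice were dissociated on postnatal day (P) 3, 7 or 14. Mice breathed room air (21% oxygen, normoxia) or 85% oxygen (hyperoxia) from birth, with 6 mice in each of the 6 groups of age and oxygen. Cells of each mouse were tagged with MULTI-seq lipid barcodes, mixed in 5 pools and sequenced as 6 libraries, each pool holding both oxygen levels. No pool held P14 mice together with a younger age, so age and pool cannot be told apart in comparisons that involve P14. Nursing dams were rotated between the chambers. Mice of both sexes were used, and the paper names their unequal shares at P3 and P7 as a limitation. Sex was not a covariate here.

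The matrix held 61839 cells in 34 annotated cell types, with 125 to 3036 cells and 1040712 to 19578324 unique molecular identifiers (UMIs) per mouse. At P14 the median depth per cell was higher in each hyperoxic mouse (5324 to 7981) than in any normoxic mouse (2988 to 3596). Of 61441 distinct cell barcodes, 394 occurred in more than 1 library. Levels are given as UMIs of a gene per 1000000 UMIs (CPM) over the cells of 1 type in 1 mouse, for mice with at least 10 such cells. CPM takes out the depth, but says nothing of the RNA content of a cell. Capture differs between genes, so levels were compared within a gene and not between genes.

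Cell types carry the names of the deposited annotation, with 1 exception. The population deposited as SMC had 237 CPM of Pdgfra ± 160 (SD, n = 35 mice) and 458 CPM of Myh11 ± 178. The population deposited as Myofibroblast had 1.74 CPM of Pdgfra ± 4.17 (n = 19) and 2784 CPM of Myh11 ± 1025. Pdgfra marks alveolar myofibroblasts and Myh11 marks smooth muscle, so these markers went against both labels. The populations are called SMC-labelled and Myofibroblast-labelled stromal cells here.

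In the genome (GRCm38), Dlk1 (chr12:109452823-109463336) is followed on the plus strand by Meg3 (chr12:109541001-109571726) and Mirg (chr12:109729764-109749460). Peg3 (chr7:6703892-6730431), H19 (chr7:142575529-142578143), Igf2 (chr7:142650766-142666816) and Cdkn1c (chr7:143458339-143461050) lie on the minus strand. Grb10 (chr11:11930508-12038683) and Igf2r (chr17:12682406-12769664) are also on the minus strand. The noncoding RNA Airn overlaps Igf2r over 28354 bases on the other strand.

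H19, Meg3 and Mirg are also hosts of microRNAs, which were not measured here. Some mature sequences are shown because these hosts are among the members that fell with age. RefSeq (GRCm38.p6) places 2 mature microRNAs within H19, 3 within Meg3 and 26 within Mirg on the host strand. Capitals mark the seed, bases 2 to 8. The 26 microRNAs of Mirg have 25 seeds, since miR-453 and miR-496a-5p share one:
miR-675-5p, in H19: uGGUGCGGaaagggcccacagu
miR-675-3p, in H19: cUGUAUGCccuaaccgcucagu
miR-770-5p, in Meg3: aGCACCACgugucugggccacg
miR-770-3p, in Meg3: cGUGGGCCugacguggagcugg
miR-453, in Mirg: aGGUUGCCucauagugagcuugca
miR-496a-5p, in Mirg: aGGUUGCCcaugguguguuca

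Promoters of H19 and Cdkn1c were not searched, as the table used here holds no entry for them. For the other 8 members, Rian among them, 13 promoters from 250 bases before to 50 after a start (RefSeq, GRCm38.p6) were searched for 3 motifs on both strands. Those of Meg3, Peg3 and Igf2r shown here are the ones that held at least 1 of them. TGACGTCA, the cyclic AMP response element, was present in 1 of the 2 Meg3 promoters, in that of Peg3 and in 1.79% of 32851 promoters. The palindrome of the CLEAR element of lysosomal genes was present in Igf2r and in 0.326% of promoters. It contains the E-box CACGTG, which occurs 2 times in the Igf2r promoter, once outside the capitals, and in 7.15% of promoters. Capitals mark the first motif in Meg3 and Peg3 and the CLEAR palindrome in Igf2r, and a match describes the letters only:
Meg3, chr12:109540746-109541045, plus strand: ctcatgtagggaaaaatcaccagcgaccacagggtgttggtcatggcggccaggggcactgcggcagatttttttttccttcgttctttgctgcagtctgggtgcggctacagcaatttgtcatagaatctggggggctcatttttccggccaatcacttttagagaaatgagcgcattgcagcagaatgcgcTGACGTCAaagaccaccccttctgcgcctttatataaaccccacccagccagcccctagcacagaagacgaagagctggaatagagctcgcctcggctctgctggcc
Peg3, chr7:6730370-6730669, minus strand: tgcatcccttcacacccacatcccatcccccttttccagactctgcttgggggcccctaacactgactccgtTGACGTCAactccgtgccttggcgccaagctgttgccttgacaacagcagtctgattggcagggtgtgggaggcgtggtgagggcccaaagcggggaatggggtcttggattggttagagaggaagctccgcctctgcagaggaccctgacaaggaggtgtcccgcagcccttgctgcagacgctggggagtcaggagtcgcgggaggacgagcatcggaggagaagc
Igf2r, chr17:12769657-12769956, minus strand: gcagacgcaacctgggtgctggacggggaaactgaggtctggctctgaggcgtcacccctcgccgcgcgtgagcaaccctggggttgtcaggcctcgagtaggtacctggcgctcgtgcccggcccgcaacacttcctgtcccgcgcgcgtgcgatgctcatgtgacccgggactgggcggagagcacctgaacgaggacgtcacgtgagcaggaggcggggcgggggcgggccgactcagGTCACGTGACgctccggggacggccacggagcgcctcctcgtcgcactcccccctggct

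The values rest on 153173 UMIs of Meg3 in all cells. Peg3 had 77120 UMIs, Cdkn1c 68649, Grb10 34440, Igf2r 33247, H19 14405, Dlk1 12482 and Mirg 1305. Stromal cells, with mesothelial cells counted among them, were 36.8% of the cells and gave 36.4% of all UMIs. They held 79.6% of the Grb10 UMIs, 75.9% of H19, 66.0% of Peg3, 63.1% of Meg3, 62.9% of Cdkn1c and 61.7% of Igf2r. Dlk1 had 59.5% of its UMIs in epithelium and 39.3% in stroma. Immune cells, 29.2% of the cells, held 6.97% of the Igf2r UMIs and 0.647% to 1.40% of those of each other member.

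**Figure D1:**
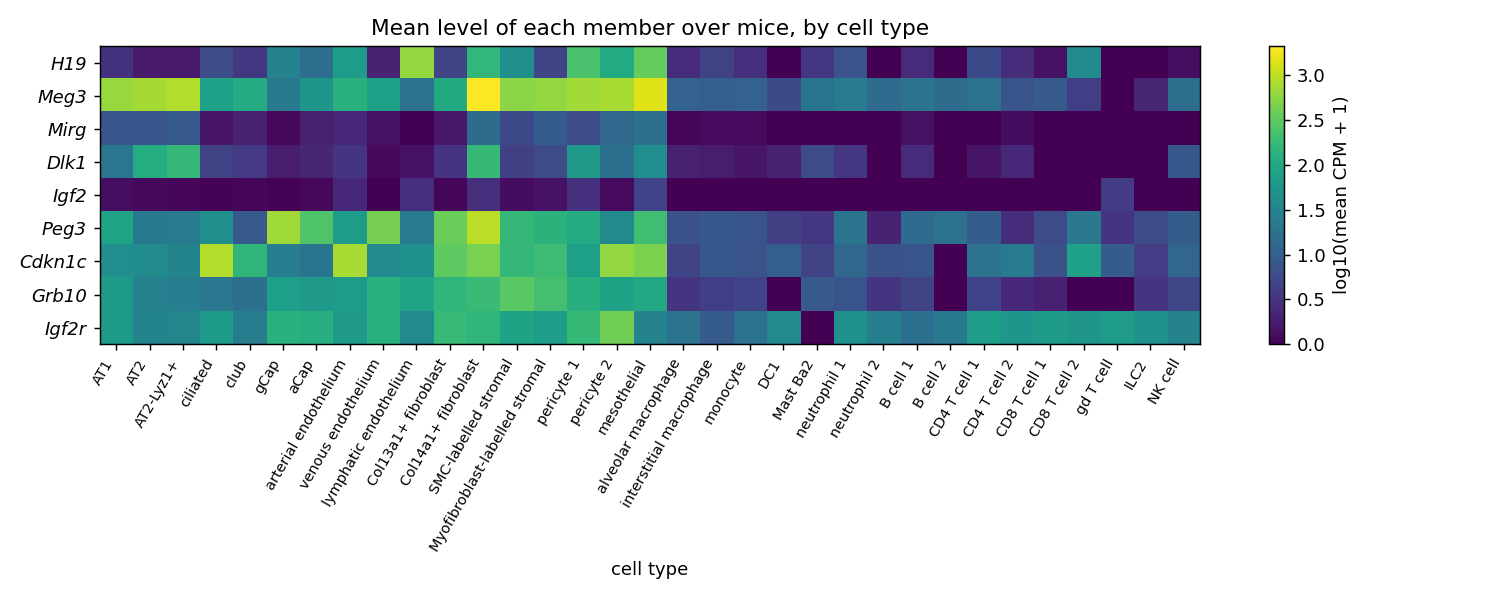
Mean level of the members (rows) in each cell type (columns), over mice of all groups with at least 10 cells of the type, with colour for log10 of the mean CPM plus 1. The Meg3 row reaches 2123 CPM in Col14a1+ fibroblasts, and the Igf2 row stays at or below the 3.61 CPM of mesothelial cells.

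The order of cell types differed from member to member. Meg3 was highest in Col14a1+ fibroblasts (2123 CPM ± 697, SD, n = 35 mice), then in mesothelial cells (1440 ± 590, n = 29) and AT2-Lyz1+ cells (872 ± 482, n = 34). H19 was highest in lymphatic endothelium (629 CPM ± 434, n = 15), before mesothelial cells (346 ± 275, n = 29) and pericyte 1 cells (236 ± 228, n = 35). Each of the first 2 H19 means exceeded the next by less than its own SD. Dlk1 had its highest means in Col14a1+ fibroblasts (169 CPM ± 152) and AT2-Lyz1+ cells (163 ± 143, n = 34), but their order changed with the group. In normoxia at P7 it was 58.8 to 232 CPM in the former and 239 to 373 in the latter, with no overlap, while the means at P14 were 62.6 and 26.9. Mirg reached 15.8 CPM ± 10.2 in mesothelial cells.

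Peg3, a zinc finger protein, was highest in Col14a1+ fibroblasts (948 CPM ± 231, n = 35), followed by general capillary endothelium (gCap, 710 ± 256). Cdkn1c had its highest means in ciliated cells (876 CPM ± 556, n = 34) and arterial endothelium (772 ± 494, n = 28), which overlapped within 1 SD. This order changed with the group, since in normoxia at P14 the median of pericyte 2 cells was above that of ciliated cells. Grb10 was highest in SMC-labelled stromal cells (299.5 CPM ± 63.0, n = 35). Igf2r stood apart in pericyte 2 cells (415 CPM ± 96.5, n = 29), the next type being Col13a1+ fibroblasts (175 ± 71.7, n = 36). These orders are descriptions, since the types were clustered from the same genes and each SD spans all ages and both oxygen levels.

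B cell 1 cells were taken as a type in which little of these genes was looked for, and their levels may hold free RNA or expression of their own. Their mean over 35 mice was 17.7 CPM for Meg3, 15.5 for Igf2r, 13.7 for Peg3, 6.39 for Cdkn1c and 1.58 for H19. A Meg3 UMI was found in 2.89% of B cell 1 cells and in 80.2% of AT2 cells, and after thinning each cell to 1000 UMIs in 1.20% and 41.7%. The median depth in the 6 groups was 1682 to 3379 UMIs in B cell 1 cells and 4732 to 14356 in AT2 cells. The Meg3 share was thus higher in AT2 than in B cell 1 cells also at equal depth.

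Igf2 had 153 UMIs among all cells and was not tested, since it passed the filter on low counts in no cell type. Mesothelial cells had the highest level, with a mean of 3.61 CPM ± 5.07 (n = 29 mice). There the 6 normoxic P3 mice had 0 to 18.9 CPM (median 7.31), and the 4 normoxic P14 mice were at 0. The annotation places another protein-coding gene on the same strand over 16048 bases of Igf2, and its effect on the Igf2 count was not tested. These counts are thus no measure of how much Igf2 the lung made.

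The first question was how the members changed as the normoxic lung matured. Between P3 and P14 the members mostly fell, in epithelium, endothelium and stroma. Of 94 pairs of a member and a cell type tested (8 members, 17 types), 48 fell, 4 rose and 42 did not pass. Over all 124553 pairs of a gene and a type, 23.7% were called, 12.0% lower and 11.7% higher. The median log2 fold change was -0.90 over the member pairs and -0.00062 over all pairs. A call needed an adjusted p under 0.05 in edgeR's quasi-likelihood test, with Benjamini-Hochberg adjustment over all genes of the type, and a UMI in no less than 10% of cells in 1 of the groups. When the share of cells was taken after thinning, which alters the detection criterion and not the fold change or its p, 34 of these pairs remained called. The 18 pairs lost were Grb10 in AT1, AT2, ciliated, gCap and pericyte 2 cells, Cdkn1c in AT1, AT2 and AT2-Lyz1+ cells, and Peg3 in AT2 and AT2-Lyz1+ cells. They also included Meg3 in ciliated cells and venous endothelium, H19 in arterial endothelium and SMC-labelled stromal cells, Mirg in mesothelial cells and Col14a1+ fibroblasts, Dlk1 in mesothelial cells and Igf2r in CD4 T cell 1 cells.

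**Figure D2:**
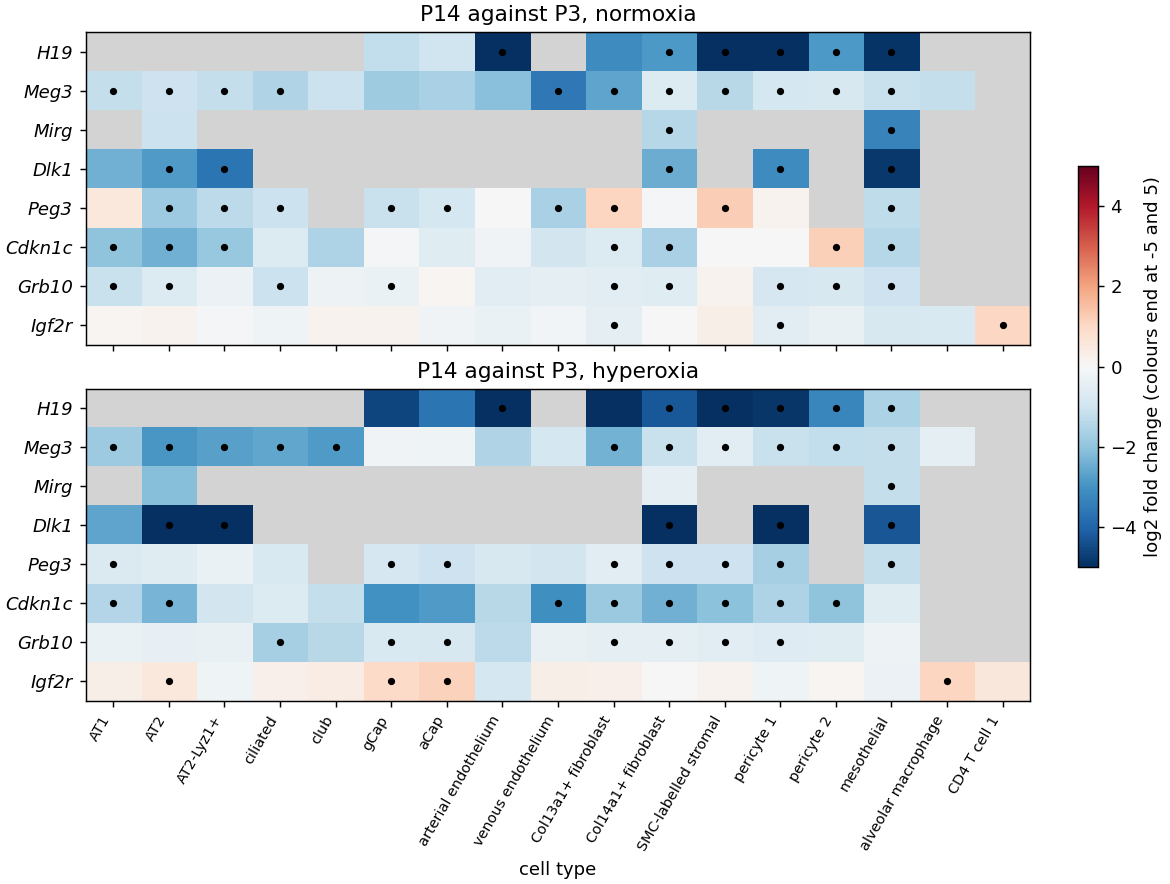
Log2 fold change of P14 against P3 in normoxia (top) and in hyperoxia (bottom) for each member (rows) and cell type (columns). Blue is lower at P14, red is higher, grey was not tested, and a dot marks a call. In normoxia 48 pairs are called lower and 4 higher.

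H19 showed the deepest decline. In pericyte 1 cells it was 187 to 855 CPM in the 6 normoxic P3 mice (median 532), 80.1 to 260 at P7 (median 168) and 0 to 13.3 at P14 (median 0). The P3 and P14 mice did not overlap. The log2 fold change from P3 to P14 was -6.38 (SE 0.54, edgeR adjusted p = 5.2e-12), with 6 UMIs in 257 cells at P14 against 505 UMIs in 187 cells at P3. In SMC-labelled stromal cells the normoxic mice had 60.2 to 227 CPM at P3 (median 90.2), 15.9 to 33.1 at P7 (median 22.9) and 0 to 2.02 at P14 (median 0.456). Only 3 UMIs were left there among 1516 cells at P14, so the fitted size (log2 -7.27) depends on the prior count, and the call was lost with thinned detection.

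H19 also fell in Col14a1+ fibroblasts (log2 -2.86, SE 0.51), mesothelial cells (-4.91, SE 0.72) and pericyte 2 cells (-2.86, SE 0.61). In arterial endothelium it went from 101 UMIs in 117 cells to 1 UMI in 145 cells, a call lost with thinned detection. Lymphatic endothelium had too few mice for the test by group. Its normoxic levels were 764 to 1233 CPM in 2 mice at P3, 781 to 1587 CPM in 3 mice at P7 and 80.5 to 572 CPM in 4 mice at P14. All P14 mice lay below the P3 and P7 mice, and each lay above the P14 range of pericyte 1 cells.

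Dlk1, a membrane protein of the Notch ligand family, fell in 5 of 6 types tested. In AT2 cells, the surfactant-making alveolar epithelium, normoxic mice had 98.0 to 383 CPM at P3 (median 274), 166 to 273 at P7 (median 237) and 9.91 to 105 at P14 (median 29.1). The P3 and P7 ranges overlapped, and the highest P14 mouse was above the lowest P3 mouse. From P3 to P14 Dlk1 fell by 2.82 on the log2 scale (SE 0.38, edgeR adjusted p = 4.2e-07). In Col14a1+ fibroblasts it went from 238 to 558 CPM at P3 (median 355) to 58.8 to 232 at P7 (median 121), with no overlap and a log2 change of -1.35 (SE 0.28, adjusted p = 0.0018). At P14 the range there was 14.5 to 127 CPM (median 59.4). In AT2-Lyz1+ cells the ranges were 170 to 526 CPM at P3 and 7.43 to 54.7 at P14, with no overlap (-3.67, SE 0.34). In mesothelial cells Dlk1 went from 127 UMIs in 94 cells to 3 UMIs in 95 cells, a call lost with thinned detection.

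Meg3 fell in 11 of 16 types tested, by 0.68 to 3.56 on the log2 scale. The smallest of these declines was in its highest type, Col14a1+ fibroblasts, with 2378 to 3581 CPM at P3 (median 2787) and 1269 to 2286 at P14 (median 1596). The largest, in venous endothelium, rests on 6 UMIs among 149 cells at P14 and was lost with thinned detection. In Col13a1+ fibroblasts Meg3 fell early, from 125 to 312 CPM at P3 (median 227) to 19.3 to 119 at P7 (median 46.4), a log2 change of -1.83 (SE 0.28, edgeR adjusted p = 2.9e-05). The P3 and P7 mice did not overlap there. In pericyte 2 cells the call from P3 to P14 (-0.78, SE 0.24) was lost without normoxic P3 replicate 3.

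Mirg, downstream of Meg3, fell in 2 of 3 types tested, and both calls were lost with thinned detection. In mesothelial cells the 6 normoxic P3 mice had 8.03 to 33.0 CPM (median 20.1), while 3 of the 4 normoxic P14 mice were at 0 and the other at 5.31. In Col14a1+ fibroblasts it went from 4.44 to 29.6 CPM (median 20.5) to 0 to 16.7 (median 5.89), and the ranges overlapped. In AT2 cells it fell from P7 to P14 (log2 -1.36, SE 0.33), and at P7 each normoxic mouse was at 7.54 CPM or above (median 12.2) and each hyperoxic mouse at 6.43 or below (median 4.12; -1.49, SE 0.31, edgeR adjusted p = 0.00051). A Mirg UMI was found in 12.6% of normoxic AT2 cells at P7 and after thinning in 1.46%, so that both of these calls were lost.

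Cdkn1c and Peg3 changed in both directions. Cdkn1c fell in 6 types, among them AT2 cells, with 59.2 to 108 CPM at P3 (median 87.9), 18.9 to 41.6 at P7 (median 27.6) and 13.2 to 22.4 at P14 (median 16.7). No P3 mouse overlapped with the later ages, and the log2 change was -1.58 (SE 0.26) from P3 to P7 and -2.39 (SE 0.28, edgeR adjusted p = 1.5e-08) from P3 to P14. Both calls were lost with thinned detection, the share at P3 being 35.1% before and 7.66% after thinning. In pericyte 2 cells Cdkn1c instead rose, from 493 to 539 CPM in 3 normoxic P3 mice (median 538) to 804 to 1702 in 6 P14 mice (median 1213). These groups did not overlap either, and the log2 change was 1.20 (SE 0.31, adjusted p = 0.0026).

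Peg3 fell in 7 types, including gCap cells, with 519 to 1203 CPM at P3 (median 795) and 343 to 427 at P14 (median 361). The ranges did not overlap (log2 -1.11, SE 0.16). The largest of its declines was in AT2 cells (-1.81, SE 0.25), from 37.3 to 45.7 CPM at P3 to 8.67 to 17.9 at P14, also with no overlap. The P14 range spanned the Peg3 mean of B cell 1 cells and may be background. That call was lost with thinned detection, the share at P3 being 19.2% before and 4.03% after. It rose in Col13a1+ fibroblasts, from 265 to 382 CPM at P3 (median 355) to 567 to 826 at P14 (median 711), with a log2 change of 1.07 (SE 0.17, edgeR adjusted p = 9.6e-07) and no overlap. In SMC-labelled stromal cells it was 98.8 to 199 CPM at P3 (median 167) and 179 to 579 at P14 (median 374). That rise (log2 1.23, SE 0.23) left the lowest P14 mouse within the P3 range.

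Grb10 and Igf2r changed less. Grb10 fell in 9 of 15 types, by 0.32 to 1.12 on the log2 scale. The largest decline was in AT1 cells (-1.12, SE 0.27), from 45.6 to 123.8 CPM at P3 to 20.6 to 50.2 at P14, where the ranges overlapped and thinned detection ended the call. In its highest type, SMC-labelled stromal cells, it was 270 to 406 CPM at P3 (median 296) and 323 to 382 at P14 (median 355) and did not pass (log2 0.16, SE 0.10). Igf2r did not pass in 14 of 17 types. It fell in Col13a1+ fibroblasts (log2 -0.44, SE 0.12) and pericyte 1 cells (-0.52, SE 0.20), and rose in CD4 T cell 1 cells (1.02, SE 0.38). The call in pericyte 1 cells was lost with a minimum of 25 cells, and that in CD4 T cell 1 cells with thinned detection.

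Most calls came after P7. From P3 to P7 in normoxia 8 of 94 member pairs were called, all lower, against 1.74% of all pairs called and 0.813% called lower. Dlk1 in AT1 cells rose in that step (log2 2.68, SE 0.62, edgeR adjusted p = 0.012). A UMI in 8.24% of the P7 cells left that rise without a call. From P7 to P14 there were 32 lower and 5 higher calls, against 20.2% of all pairs called, 10.4% lower and 9.78% higher. The earlier step could be repeated within the 1 pool that held both ages, where 7 of 74 pairs tested were called, against 1.66% of all pairs. Of the 8 calls 6 were kept there, and those of Meg3 in pericyte 1 cells and H19 in SMC-labelled stromal cells were lost.

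Other imprinted genes and genes of the IGF pathway give the setting of this decline. These lists, and that of cell division genes, were also chosen with earlier results known, so their shares are descriptions. Of 24 further imprinted genes 20 could be tested, and 55 of their 164 pairs fell from P3 to P14 in normoxia and 9 rose (median log2 fold change -0.33), against 12.0% of all pairs called lower and 11.7% higher. Mest fell in all 10 types tested, by 1.52 to 5.51 on the log2 scale, and Nnat in 8 of 9. Plagl1, a zinc finger transcription factor, fell in 8 of 14 types and rose in AT1 cells (log2 0.88, SE 0.24).

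IGF pathway genes moved the other way more often, with 57 of 197 pairs higher and 26 lower (median 0.31), against 11.7% of all pairs called higher and 12.0% lower. Pik3r1, a regulatory subunit of PI3 kinase, rose in 13 of 21 types, and Insr, the insulin receptor, in 7 of 14. Igf2bp3, an RNA-binding protein named for its binding of Igf2 messages, fell in 9 of 14. Cell division genes fell in 66 of 137 pairs (median -3.85), against the 12.0% of all pairs called lower.

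The second question was the effect of hyperoxia. With age as a covariate, 34 of 80 member pairs tested (7 members, 18 types) were called over all ages, 21 lower and 13 higher. Over all 108521 pairs of a gene and a type 23.9% were called, 11.8% lower and 12.1% higher. By age, 11 of 94 member pairs were called at P3 (3.06% of all pairs), 20 at P7 (7.50%) and 30 at P14 (25.0%). Over all ages the calls of Cdkn1c, Grb10 and Dlk1 were lower, those of Igf2r were higher, and Meg3 and Peg3 had both.

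**Figure D3:**
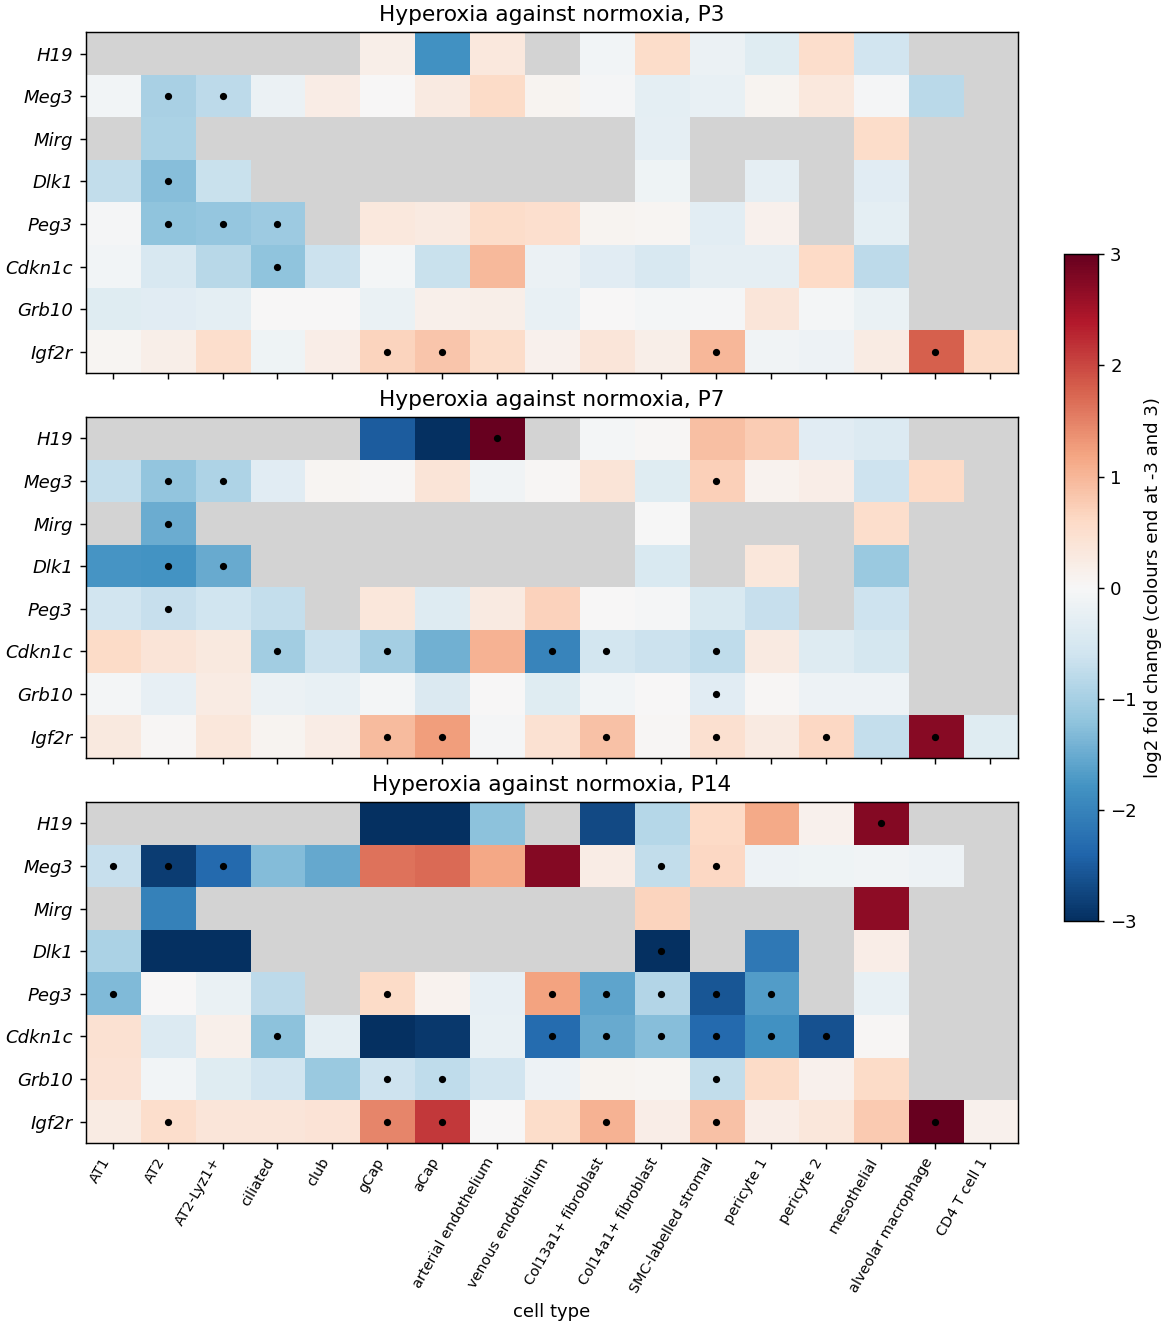
Log2 fold change of hyperoxia against normoxia at P3, P7 and P14 for each member (rows) and cell type (columns). Red is higher in hyperoxia, blue is lower, grey was not tested, and a dot marks a call. There are 11, 20 and 30 calls at the 3 ages.

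Igf2r rose in 9 of 14 types over all ages. The largest change was in alveolar macrophages (log2 2.64, SE 0.26, edgeR adjusted p = 2.3e-11). Normoxic mice had 0 to 14.3 CPM at P3 (median 6.02), 0 to 5.66 at P7 (median 5.16) and 1.80 to 8.78 at P14 (median 4.31). Hyperoxic mice had 11.1 to 36.3 CPM at P3 (median 18.97), 15.0 to 43.9 at P7 (median 22.2) and 14.9 to 60.7 at P14 (median 54.0). The groups overlapped at P3 but not at P7 or P14.

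The normoxic macrophage levels were at or below those of B cell 1 cells, whose P14 means were 14.4 CPM in normoxia and 16.9 in hyperoxia, and may be background. At P14 an Igf2r UMI was found in 33.9% of hyperoxic and 2.63% of normoxic macrophages, at median depths of 12933 and 5911 UMIs. After thinning, the shares were 4.36% and 0.628%, under the 10% that a call needed, and each call of Igf2r in these cells was lost when detection was measured this way. That loss follows from the low level in both groups and is no test of the difference between them. The summed stromal markers in these macrophages were 272 to 398 CPM in normoxic and 169 to 423 in hyperoxic P14 mice, with 0 of 8 markers at 0, and their part in the result was not tested. Within the P14 pools the mean Igf2r level was 56.2 CPM in hyperoxia against 3.18 in normoxia, and 35.3 against 5.86.

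Endothelium showed the same direction at higher levels. In alveolar capillary endothelium (aCap) the P14 mice had 53.9 to 79.9 CPM of Igf2r in normoxia (median 57.6) and 191 to 380 in hyperoxia (median 240), a log2 change of 2.12 (SE 0.16, edgeR adjusted p = 2.0e-15). In gCap cells they had 76.5 to 102 CPM (median 95.6) and 179 to 383 (median 219), a log2 change of 1.47 (SE 0.15). Neither pair of groups overlapped. Over all ages Igf2r also rose in Col13a1+ fibroblasts (log2 0.76, SE 0.09) and SMC-labelled stromal cells (0.75, SE 0.08), where thinned detection ended the call. In pericyte 2 cells, its highest type, the change was 0.33 (SE 0.12, adjusted p = 0.024), and the call was lost when mice with under 25 cells were left out or without the filter on low counts.

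Airn, the antisense partner of Igf2r, had 14989 UMIs. At P14 its log2 change in hyperoxia was 0.0082 in aCap cells (SE 0.23, edgeR adjusted p = 0.98), -0.52 in gCap cells (SE 0.22, edgeR adjusted p = 0.043) and -1.06 in SMC-labelled stromal cells (SE 0.18, edgeR adjusted p = 4.7e-06). In pericyte 2 cells it was -1.07 (SE 0.26), and in Col13a1+ fibroblasts it did not pass (0.17, SE 0.09). Over all ages Airn rose in Col13a1+ fibroblasts (0.34, SE 0.05, edgeR adjusted p = 5.9e-06), where Igf2r rose too. It was lower over all ages in SMC-labelled stromal cells (-0.39, SE 0.14) and pericyte 2 cells (-0.63, SE 0.18). Whether the reads of the pair were kept apart by strand is not given in the sources used here.

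Meg3 was lower in hyperoxic AT2 cells at each age. It was 1011 to 1698 CPM in normoxia and 564 to 792 in hyperoxia at P3 (medians 1364 and 666), 986 to 1455 and 279 to 719 at P7 (medians 1140 and 466), and 573 to 929 and 52.4 to 165 at P14 (medians 648 and 75.9). The groups did not overlap at any age. The log2 change was -0.98 (SE 0.19) at P3, -1.17 (SE 0.19) at P7 and -2.85 (SE 0.21, edgeR adjusted p = 1.4e-14) at P14. At P14 a Meg3 UMI was found in 79.6% of normoxic and 34.6% of hyperoxic AT2 cells, and after thinning in 40.8% and 7.60%.

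The summed stromal markers in AT2 cells were 157 to 257 CPM in normoxic and 108 to 178 in hyperoxic P14 mice, with 0 and 1 of 8 markers at 0, and their part in the Meg3 difference was not tested. Within the P14 pools the mean Meg3 level was 85.7 CPM in hyperoxia against 649 in normoxia, and 102 against 742. AT2-Lyz1+ cells had the same direction at P14 (log2 -2.34, SE 0.21), as did AT1 cells with a smaller change (-0.69, SE 0.21). In SMC-labelled stromal cells Meg3 was instead higher, with 327 to 550 CPM in hyperoxia and 254 to 405 in normoxia at P14 (medians 488 and 301; log2 0.61, SE 0.15). The ranges overlapped.

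Dlk1 in AT2 cells was 98.0 to 383 CPM in normoxia and 49.6 to 139 in hyperoxia at P3 (medians 274 and 101), and 166 to 273 and 12.4 to 151 at P7 (medians 237 and 45.6). The ranges overlapped at P3 but not at P7, and the log2 change over all ages was -1.82 (SE 0.25, edgeR adjusted p = 1.5e-07). At P14 all hyperoxic AT2 cells together held 21 Dlk1 UMIs, with 0 to 8.25 CPM by mouse against 9.91 to 105 in normoxia. That pair passed edgeR's test (log2 -3.93, SE 0.68, adjusted p = 8.8e-06) but was below the detection criterion. So did AT2-Lyz1+ cells at P14 (-4.26, SE 0.98, edgeR adjusted p = 0.00091), also below that criterion. In Col14a1+ fibroblasts Dlk1 was called at P14 but not at P3 or P7, with 2.77 to 19.6 CPM in hyperoxia and 14.5 to 127 in normoxia (medians 5.37 and 59.4; log2 -3.31, SE 0.55). The highest hyperoxic mouse lay above the lowest normoxic mouse, and the call was lost with thinned detection.

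**Figure D4:**
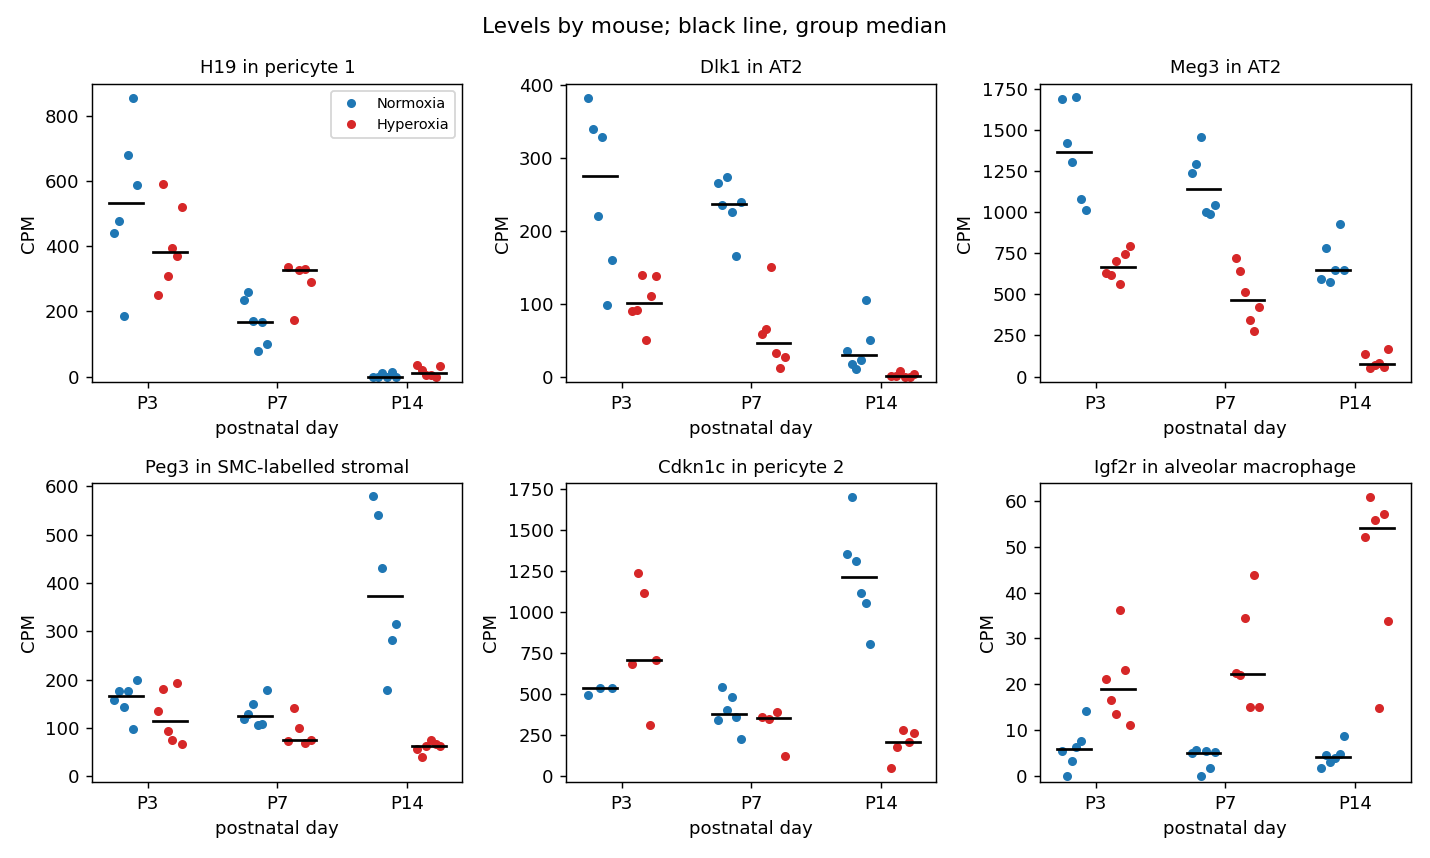
CPM of 6 pairs of a member and a cell type in each mouse (points) by age, with normoxia and hyperoxia in separate colours and lines at the group medians. Igf2r in alveolar macrophages is higher in hyperoxia, Meg3 in AT2 cells is lower, and Peg3 in SMC-labelled stromal cells and Cdkn1c in pericyte 2 cells separate at P14.

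At P14 Peg3 was lower in hyperoxia in 4 stromal types and in AT1 cells, and Cdkn1c in 5 stromal types, in ciliated cells and in venous endothelium. In mesothelial cells neither passed (log2 -0.22, SE 0.25, and 0.04, SE 0.30). Peg3 in SMC-labelled stromal cells was 179 to 579 CPM in normoxia and 39.4 to 75.5 in hyperoxia (medians 374 and 62.7), a log2 change of -2.57 (SE 0.24, edgeR adjusted p = 1.1e-11) with no overlap. At P3 the ranges overlapped (98.8 to 199 and 66.4 to 193 CPM), and the pair was not called at P3 or P7. In Col13a1+ fibroblasts the P14 mice had 567 to 826 CPM in normoxia and 136 to 358 in hyperoxia (log2 -1.58, SE 0.17). Peg3 was higher in hyperoxia at P14 in 2 of 4 endothelial types, by 0.58 in gCap cells (SE 0.16) and 1.22 in venous endothelium (SE 0.34) on the log2 scale. It did not pass in aCap cells (0.095, SE 0.20) or arterial endothelium (-0.24, SE 0.53).

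In epithelium Peg3 was called lower in hyperoxia at P3 too. In AT2 cells it was 37.3 to 45.7 CPM in normoxia and 11.4 to 23.2 in hyperoxia at P3 (medians 41.7 and 18.2), with no overlap (log2 -1.20, SE 0.23, edgeR adjusted p = 0.00031). The P7 change was -0.70 (SE 0.22), and at P14 the medians were 11.7 and 12.4 CPM. Both P14 medians were below the Peg3 mean of B cell 1 cells and may be background. Thinned detection ended the calls in AT2 cells at both ages and that in AT2-Lyz1+ cells at P3. All 3 calls of Peg3 at P3 were lower and epithelial, the others being AT2-Lyz1+ cells (-1.17, SE 0.35) and ciliated cells (-1.08, SE 0.27). In AT1 cells the call came at P14, with 105 to 218 CPM in normoxia and 34.1 to 77.4 in hyperoxia (log2 -1.31, SE 0.23).

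Cdkn1c at P14 was 159 to 291 CPM in normoxic and 28.3 to 66.7 in hyperoxic SMC-labelled stromal cells (medians 235 and 41.5; log2 -2.33, SE 0.19, edgeR adjusted p = 1.5e-13). In pericyte 2 cells it was 804 to 1702 CPM in 6 normoxic mice (median 1213) and 52.5 to 282 in 5 hyperoxic mice (median 208; log2 -2.62, SE 0.28). Neither pair of groups overlapped. Ciliated cells had the highest mean over all groups, but in normoxia at P14 their median was below that of pericyte 2 cells. Their medians in normoxia and hyperoxia were 1579 and 539 CPM at P3, 1407 and 614 at P7, and 596 and 375 at P14. The hyperoxic median was the lower at each age. The ranges overlapped at P3 and P14 but not at P7 (1198 to 2239 and 554 to 771 CPM). In venous endothelium at P7 Cdkn1c was 36.0 to 91.1 CPM in normoxia and 3.79 to 32.4 in hyperoxia (log2 -1.97, SE 0.46). The calls there at P7 and P14 were lost with thinned detection.

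Grb10 was lower in hyperoxia in 3 types over all ages. In SMC-labelled stromal cells it was 323 to 382 CPM in normoxia and 183 to 243 in hyperoxia at P14 (medians 355 and 192; log2 -0.73, SE 0.10, edgeR adjusted p = 3.3e-08), with no overlap. The P14 changes in aCap and gCap cells were -0.75 (SE 0.20) and -0.62 (SE 0.14). With thinned detection no Grb10 call in these 2 endothelial types was left, at P14 or over all ages.

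H19 was called over all ages in 0 of 7 types by edgeR's quasi-likelihood test and in 0 by DESeq2, with 2 at an unadjusted p under 0.05. One of these was lymphatic endothelium, the type with the highest H19 mean, and it did not pass after adjustment (log2 -1.15, SE 0.34, edgeR adjusted p = 0.16). The other, gCap (log2 -1.44, SE 0.35, edgeR adjusted p = 0.0010), had too few cells with a UMI for a call. In gCap cells at P7 it was 53.6 to 118 CPM in normoxia and 1.85 to 31.1 in hyperoxia, with no overlap (-2.50, SE 0.42, adjusted p = 2.3e-05), and a UMI in 9.56% of the normoxic cells again left it without a call. At P14 the gCap change was -3.20 (SE 0.93, adjusted p = 0.0039), on 4 UMIs in hyperoxia and 85 in normoxia. In aCap cells H19 likewise passed edgeR's test but not the detection criterion, with 5 UMIs in hyperoxia and 117 in normoxia at P7 (adjusted p = 6.1e-05), and 1 and 28 at P14 (adjusted p = 0.0018). The call in arterial endothelium at P7 (3.87, SE 0.79) was lost without hyperoxic P7 replicate 1 or 2 and with thinned detection. In mesothelial cells at P14 H19 was 18.3 to 271 CPM in hyperoxia and 0 to 37.2 in normoxia (medians 95.4 and 10.3). That call (log2 2.76, SE 0.82) was lost without any 1 of the 4 normoxic P14 mice and in other refits that left out a mouse, and with thinned detection.

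All 11 calls at P3 and all 30 at P14 kept 1 direction in every pool, as did 19 of 20 at P7, the exception being H19 in arterial endothelium. The pools hold the same mice that gave the calls, so this was likely from the start and is not separate evidence. With the pool as a replicate block, 14, 23 and 29 pairs were called at the 3 ages. Under the block Cdkn1c in venous endothelium at P14 and Meg3 in pericyte 1 cells from P3 to P7 lost their calls.

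The third question was whether the course with age differed in hyperoxia. The difference between hyperoxia and normoxia in the change from P3 to P14 was called for 21 of 94 member pairs, 15 lower and 6 higher, against 10.1% of all pairs, 4.84% lower and 5.28% higher. In SMC-labelled stromal cells Peg3 rose in normoxia and fell in hyperoxia (log2 -1.02, SE 0.27, a fall whose call was lost with thinned detection), a difference of -2.25 (SE 0.35, edgeR adjusted p = 3.9e-06). In pericyte 2 cells Cdkn1c rose in normoxia and fell in hyperoxia (-2.03, SE 0.30), a difference of -3.23 (SE 0.43, adjusted p = 5.0e-07). Meg3 in AT2 cells fell by 1.05 in normoxia and by 2.91 in hyperoxia, a difference of -1.87 (SE 0.28). Peg3 in pericyte 1 cells fell in hyperoxia (-1.64, SE 0.31) and did not pass in normoxia (0.17, SE 0.29), a difference of -1.82 (SE 0.42). At P14 it was 79.9 to 231 CPM there in normoxia and 0 to 62.9 in hyperoxia.

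In hyperoxia 46 of 94 member pairs fell from P3 to P14 and 4 rose, against 15.0% of all pairs called, 7.23% lower and 7.82% higher. The 4 were Igf2r in aCap cells (log2 1.14, SE 0.16), gCap cells (0.97, SE 0.16), AT2 cells (0.52, SE 0.15) and alveolar macrophages (1.07, SE 0.29). None of these rose in normoxia, and the difference was called in aCap cells (1.30, SE 0.27), gCap cells (0.81, SE 0.23) and alveolar macrophages (1.83, SE 0.63) but not in AT2 cells (0.35, SE 0.23). Thinned detection ended the calls in AT2 cells and alveolar macrophages. For H19 the difference was called in 0 of 9 types by edgeR's quasi-likelihood test and in 1 by DESeq2, with 3 at an unadjusted p under 0.05. In gCap cells it passed edgeR's test (-3.37, SE 1.07, adjusted p = 0.016) but not the detection criterion. The age and oxygen comparisons share mice, so their counts are not separate evidence.

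Other genes of the IGF pathway were more often lower than higher in hyperoxia, with 41 lower and 16 higher calls among 170 pairs over all ages (median log2 -0.15), against 11.8% of all pairs called lower and 12.1% higher. Igf1, the other IGF ligand, rose in 4 of 8 types, among them Col13a1+ fibroblasts (1.36, SE 0.21) and alveolar macrophages (1.33, SE 0.16). Igf1r, its receptor, was lower in 5 of 16 types, Insr in 5 of 10 and Irs1 in 5 of 5. Other imprinted genes had 28 lower and 16 higher calls among 149 pairs (29.5% called, against 23.9% of all pairs; median -0.038).

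By likeness of pattern over 173 combinations of cell type and group, among 9499 genes, the gene most like Dlk1 was Meg3 (Pearson r = 0.71), as it was for Mirg (0.83). H19 was most like Igf2 (0.57), and Airn most like Igf2r (0.78). The genes compared had a mean of at least 10 CPM, which was not asked of the members themselves. Igf2 had 153 UMIs in all and none in most combinations, so its value says little. Outside the network, Rbfox2 was most like Grb10 (0.91), Snhg18 most like Meg3 (0.84), Cavin1 most like Peg3 (0.84), B9d1 most like Cdkn1c (0.78) and Pkia most like H19 (0.72). The points share mice and libraries, and the values are descriptions.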

How the data were processed

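Lung cells were sequenced as 3′ single-cell libraries, and mice were told apart by MULTI-seq barcodes. The deposited matrix holds UMI counts per gene and cell, which the authors made with Cell Ranger 3.0.2 on mm10 (per the submitters' processing notes) and filtered. The deposited annotation gives the mouse, age, oxygen level and type of each cell, and doublets and low-quality cells were not filtered again here. Barcode counts of the libraries were not used here.

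Counts were summed per mouse and cell type. For each type, mice with 10 or more such cells entered edgeR 4.0.16 (R 4.3.3), with TMM scaling, filterByExpr and quasi-likelihood tests. The fits were first checked on counts simulated for Col14a1+ fibroblasts only, with changes between oxygen levels. Types with few cells, changes with age and effects of the pool were not simulated. The oxygen effect over all ages was fitted with age as a covariate (at least 4 mice per oxygen level), and all other comparisons with 6 group means (at least 2 mice per group). P-values were adjusted by the Benjamini-Hochberg method over all genes of a type. A call needed an adjusted p under 0.05 and a UMI in no less than 10% of cells in 1 group. Each SD of a level is a spread between mice, which were separate animals. An SE of a log2 change is instead a value derived through edgeR's test, and no direct spread between mice. For Dlk1 in AT1 cells, with few UMIs, the SE from P3 to P14 was 1.35 in normoxia and 1.33 in hyperoxia. That of their difference was only 1.06. SEs of pairs with few UMIs may thus be too small.

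The members and gene lists were chosen with earlier results of these data known. By rule, levels in all groups were tabulated for each member in its highest type and for its largest called change in each comparison. The text gives those its results turn on, with related pairs that were chosen after their values were seen. Mice of 1 pool deviated together (mean correlation 0.12 in Col13a1+ fibroblasts, 0.079 in gCap cells and 0.077 in SMC-labelled stromal cells, after centring each group). Between mice of different pools at the same age the means were -0.11, -0.079 and -0.077. The centring makes these means mirror the former ones, so they are no second observation. The pool is a shared batch by its label and was used as a replicate block in an alternative. That block was not fitted where P14 was compared with a younger age at the same oxygen level, since these ages share no pool. The p-values of those comparisons treat mice of 1 pool as independent. The other alternatives were DESeq2 1.42.0, RLE scaling, a minimum of 25 cells, no filter on low counts, no detection criterion, detection after thinning each cell to 1000 UMIs, no age covariate, the shared pool alone, and leaving out mice.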

Additional observations from a re-analysis of the deposited data

Results flagged for a closer look

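In 18 of 173 groups of 4 to 6 mice, the highest or lowest mouse stood far from the others by Dixon's criterion, which chance meets in about 1 in 20 groups. In 4 of these groups all other mice were at 0, so that any mouse with a UMI meets the criterion and this rate does not apply. For Meg3 these were 71.3 CPM in Col13a1+ fibroblasts at P14 in normoxia (group median 27.7), and in venous endothelium 339.8 CPM at P3 in hyperoxia and 52.3 CPM at P14 in normoxia. For H19 they were 341.5 CPM at P3 and 6.80 CPM at P14 in normoxic arterial endothelium, and 227 CPM in normoxic SMC-labelled stromal cells at P3. Dlk1 had such a mouse in Col14a1+ fibroblasts at P14 in hyperoxia (19.6 CPM) and in mesothelial cells at P14 in normoxia (20.1 CPM). In the latter group Mirg had one at 5.31 CPM.

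Peg3 reached 57.5 CPM in 1 mouse in AT2 cells at P7 in normoxia (median 19.1) and 326 CPM in pericyte 1 cells at P3 in hyperoxia (median 111). Cdkn1c had a high mouse in hyperoxic venous endothelium at P14 (18.4 CPM) and AT2 cells at P3 (103 CPM), and a low one in pericyte 2 cells at P7 (126 CPM, median 357). Grb10 had a high mouse in SMC-labelled stromal cells at P3 in normoxia (406 CPM) and ciliated cells at P3 in hyperoxia (44.4 CPM). It had a low one in hyperoxic SMC-labelled stromal cells at P7 (235 CPM) and AT1 cells at P3 (38.2 CPM).

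The change from P3 to P14 differed between hyperoxia and normoxia in 21 pairs, by edgeR's interaction test, and the sizes here are log2 differences. For Cdkn1c they were -1.18 in Col13a1+ fibroblasts, -2.05 in SMC-labelled stromal cells and -3.23 in pericyte 2 cells. Those of Dlk1 were -2.65 in AT2 cells, -3.61 in AT2-Lyz1+ cells and -3.18 in Col14a1+ fibroblasts, and the call in AT2-Lyz1+ cells was lost without hyperoxic P14 replicate 6. Grb10 differed by -0.70 in SMC-labelled stromal cells and -0.91 in aCap cells. Igf2r differed by 0.68 in Col13a1+ fibroblasts, 1.30 in aCap cells, 0.81 in gCap cells and 1.83 in alveolar macrophages. For Meg3 the values were -1.87 in AT2 cells, -1.55 in AT2-Lyz1+ cells and 0.84 in SMC-labelled stromal cells. Peg3 differed by -1.27 in AT1 cells, 1.20 in AT2 cells, -1.66 in Col13a1+ fibroblasts, -0.94 in Col14a1+ fibroblasts, -2.25 in SMC-labelled stromal cells and -1.82 in pericyte 1 cells. With detection measured after thinning, the calls of Grb10 in aCap cells, Igf2r in alveolar macrophages and Peg3 in AT2 cells were lost.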

How the results depend on the processing

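No result turned its direction under any alternative run. The count of called member pairs moved by more than 1.5 times in these cases, the cause not being tested beyond what each alternative changes: over all ages without the age covariate it was 22 in place of 34, and from P3 to P7 without the filter on low counts it was 15 in place of 8. With detection measured after thinning it was 13 in place of 20 for oxygen at P7, 34 in place of 52 from P3 to P14 in normoxia and 33 in place of 50 in hyperoxia. With at least 25 cells per mouse, which leaves fewer pairs to test, it was 33 from P3 to P14 in normoxia.

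Mice were left out 1 at a time only in types where their group held fewer than 6 mice. Calls that rest on full groups of 6 were not tried in this way, so narrow ranges were likely from the start. Leaving out 1 mouse at a time gave 11 calls for oxygen at P3, 19 to 20 at P7 and 29 to 31 at P14. It gave 8 to 11 from P3 to P7, 34 to 39 from P7 to P14, 49 to 54 from P3 to P14 in normoxia, 50 to 53 in hyperoxia, and 20 to 22 for the difference. With the pool as a replicate block there were 36 calls over all ages, 9 from P3 to P7 and 23 for the difference. Of the single pairs called, DESeq2 kept 254 and lost 8, RLE scaling kept 262 and lost 1, and thinned detection kept 186 and lost 77. Thinned detection alters no fold change or p, and pairs at low levels lose their calls by it whatever their change. Leaving out 1 mouse also ended, for at least 1 mouse, the calls of Cdkn1c and Dlk1 in mesothelial cells and Meg3 in venous endothelium from P7 to P14, and those of Grb10 in ciliated, gCap and pericyte 2 cells and of Meg3 in ciliated cells from P3 to P14 in normoxia. The call of Grb10 in SMC-labelled stromal cells at P7 was lost without hyperoxic P7 replicate 4. DESeq2 did not call Dlk1 in AT2 cells at P3, Grb10 in aCap cells for the difference, or Meg3 in ciliated cells from P3 to P14 in normoxia. H19 in lymphatic endothelium could not be given with a minimum of 25 cells.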
